A study of Mus musculus with 2 samples.

Results

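The renin-angiotensin system genes examined here are 9 genes, *Agt*, *Ace*, *Agtr1a*, *Agtr2*, *Agtrap*, *Atp6ap2*, *Enpep*, *Anpep* and *Mme*. Probe sets annotated to 1 of these symbols alone were taken, which gave 14 of the 45101 probe sets on the array, and 9 of the 18193 genes that a single symbol names. No other probe set in the annotation lists one of these genes together with another gene. Signals came from perigonadal WAT of PeriA Tg mice, which are heterozygous for human PeriA (perilipin A, a coat protein of the lipid droplet) under the aP2 promoter/enhancer, and of WT littermates without the transgene. All mice were C57BL/6 females, 30 weeks old, fed the HFD and fasted overnight before harvest. RNA of 3 mice was pooled for each genotype and hybridised to 1 array, so that there is 1 WT and 1 Tg array. The values below therefore carry no error over mice, no difference was tested, and a higher or lower signal describes these 2 arrays only.

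The renin-angiotensin system turns a secreted precursor, angiotensinogen, into short peptides that act on blood pressure, salt balance and local tissue. Renin releases angiotensin I from the precursor, the peptidase ACE trims it to angiotensin II, and aminopeptidases and neprilysin trim or destroy the peptides further. Angiotensin II acts through the AT1 and AT2 receptors. Adipocytes are a known source of angiotensinogen outside the liver, and peptidases of the system are also present on stromal, vascular and myeloid cells of fat.

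The largest signal log ratio (SLR, the log2 of the Tg signal divided by the WT signal) among members above background belonged to the precursor *Agt* at 0.45, and the lowest value of a gene, read from its brightest probe set, belonged to the aminopeptidase *Anpep* at -0.33. A probe set was called near background on both arrays when both signals were under 98.2, the median over the signals of the WT and Tg arrays, and was otherwise kept. By this rule 1 of the 14 probe sets, that of the AT2 receptor *Agtr2*, was near background, and the other 13 had their higher signal at 2.33 times that level or more. Of the 8 genes kept, 1 was over 0.3 (*Agt*), 1 was under -0.3 (*Anpep*) and 6 lay between, where 0.3 and -0.3 are the limits that the methods use for a difference. Over all 11587 genes kept, 16.6% were over 0.3 and 16.9% under -0.3, so that 1 of 8 in each direction, or 12.5%, was close to the share among all genes. The median of the 8 genes was 0.09, against 0.02 over all genes kept. No member that was kept passed a 2-fold change, which 1.02% of all genes kept did upwards and 1.87% downwards.

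**Figure D1:**
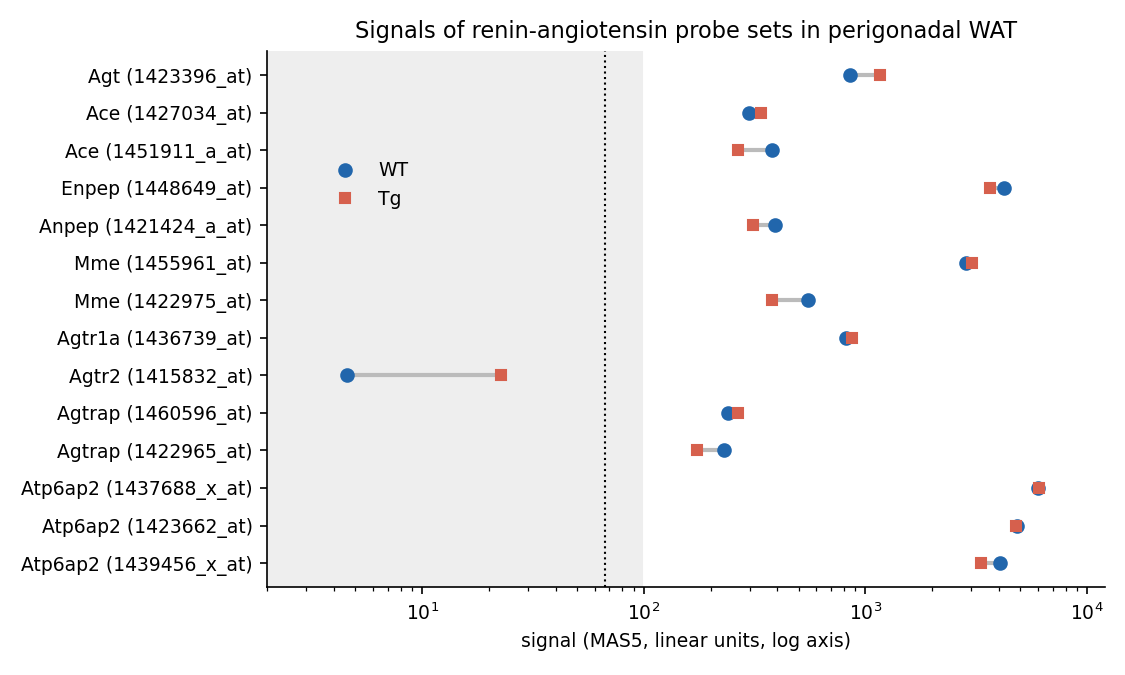
Signals of the 14 probe sets of the renin-angiotensin members on the WT array (circles) and the Tg array (squares), on a log axis, 1 array of pooled RNA per genotype. The grey area lies under 98.2, the median of all signals, and the dotted line is at 67.1, the level under which 95% of signals of olfactory and vomeronasal receptor probe sets lie; only *Agtr2* lies in the grey area, at 4.6 in WT and 22.8 in Tg.

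The sequences before the starts of *Agt* and *Ace* are shown because *Agt* had the highest ratio of the genes kept, and because *Ace* has 2 annotated starts and 2 probe sets that went opposite ways. Each run holds the 250 bases before a RefSeq start in build GRCm38.p6, 5′ to 3′ on the strand of the gene. Capitals mark TATAAA, the core of the TATA box, or its reverse complement TTTATA, and in the second *Ace* run, which has neither, ATTGG, the reverse complement of the CCAAT box.
Agt, chr8:124569707-124569956, minus strand: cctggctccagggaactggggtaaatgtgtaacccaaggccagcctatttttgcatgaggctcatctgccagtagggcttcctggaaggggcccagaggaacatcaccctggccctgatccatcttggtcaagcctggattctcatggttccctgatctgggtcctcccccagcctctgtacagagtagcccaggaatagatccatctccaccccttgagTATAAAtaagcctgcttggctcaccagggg
Ace, first start, chr11:105967698-105967947, plus strand: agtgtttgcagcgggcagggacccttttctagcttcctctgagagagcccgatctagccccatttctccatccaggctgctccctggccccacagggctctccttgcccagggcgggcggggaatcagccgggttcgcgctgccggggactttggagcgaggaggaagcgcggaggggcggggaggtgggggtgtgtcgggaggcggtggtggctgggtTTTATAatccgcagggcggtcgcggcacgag
Ace, second start, chr11:105974939-105975188, plus strand: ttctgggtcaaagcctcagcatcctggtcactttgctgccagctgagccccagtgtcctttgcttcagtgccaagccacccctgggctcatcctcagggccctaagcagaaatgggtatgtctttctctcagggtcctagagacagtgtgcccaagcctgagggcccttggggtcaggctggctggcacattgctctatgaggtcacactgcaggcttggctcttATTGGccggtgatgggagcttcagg
The TATAAA of *Agt* begins 30 bases before the start, and the TTTATA of the first *Ace* start begins 31 bases before it. Of 32851 promoter windows of this length, 12.37% hold TATAAA on either strand and 33.85% hold CCAAT. Of the 11 windows of 8 members in the table, 3 hold TATAAA, in *Agt*, *Ace* and *Enpep*, and 6 hold CCAAT. The second *Ace* start lies within the gene, and an inner start of *Ace* is known to give the shorter enzyme of the testis. Which transcript each *Ace* probe set reads is not given in the annotation used here.

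*Agt* (gene 11606, chromosome 8, 124556587 to 124569706) encodes angiotensinogen, from which all angiotensin peptides are cut. Its only probe set, 1423396_at, gave signals of 850.6 for WT and 1160 for Tg, which is 1.36-fold higher in Tg. Of all genes kept, 8.44% had a higher SLR than its 0.45. With 1 probe set, no second reading of *Agt* was at hand, and its value of 0.45 is close to the SD of 0.41 among probe sets of the same gene, pooled over the 5260 genes with at least 2 probe sets kept.

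*Ace* (gene 11421, chromosome 11, 105967948 to 105989964) encodes the peptidase that makes angiotensin II and also breaks down bradykinin. Its probe set 1427034_at had 298.3 in WT and 339.0 in Tg, an SLR of 0.18. Its other probe set, 1451911_a_at, had 378.6 in WT and 266.6 in Tg, an SLR of -0.51. The 2 readings went opposite ways at mean log2 signals that differed by only 0.0013, so that the value that stands for *Ace* could as well have been -0.51, and no direction is given for it.

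The aminopeptidases and neprilysin remove single residues or cut inside the peptides. *Enpep* (gene 13809, chromosome 3), aminopeptidase A, which takes the first residue off angiotensin II, had 4227 in WT and 3636 in Tg on its only probe set, 1448649_at, an SLR of -0.22. *Anpep* (gene 16790, chromosome 7), aminopeptidase N or CD13, which takes the next residue, had 391.5 in WT and 311.7 in Tg on its only probe set, 1421424_a_at. Both aminopeptidases were thus lower in Tg, *Enpep* within and *Anpep* just past the limit of -0.3. *Mme* (gene 17380, chromosome 3), neprilysin or CD10, which cuts angiotensins, kinins and natriuretic peptides, had 2833 in WT and 3023 in Tg on 1455961_at, an SLR of 0.09. Its other probe set, 1422975_at, had 551.3 in WT and 380.1 in Tg, an SLR of -0.54. The brighter *Mme* probe set was therefore slightly higher and the dimmer one lower in Tg.

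Among the receptors, *Agtr1a* (gene 11607, chromosome 13), which encodes the AT1a receptor and thereby most of the known pressor action of angiotensin II, had 817.6 in WT and 869.0 in Tg on its only probe set, 1436739_at. This SLR of 0.09 lay near the middle of all genes, 41.4% of which were higher. *Agtr2* (gene 11609, chromosome X), the AT2 receptor, had 4.6 in WT and 22.8 in Tg on 1415832_at. Both signals are far below 98.2. They are also below 67.1, the 95th percentile of the signals of 80 olfactory and vomeronasal receptor probe sets, taken as mostly silent in fat. Its SLR of 2.31 thus compares 2 background signals, and became 0 with signals under 56.9 raised to that floor. *Agtr2* was not detectable on either array at this sensitivity, and no change is given for it.

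*Agtrap* (gene 11610, chromosome 4) encodes a membrane protein that binds the AT1 receptor and promotes its internalisation. Its probe set 1460596_at had 240.9 in WT and 265.9 in Tg, an SLR of 0.14, and its probe set 1422965_at had 229.0 in WT and 174.3 in Tg, an SLR of -0.39. As for *Ace*, the 2 probe sets went opposite ways. *Atp6ap2* (gene 70495, chromosome X) encodes the (pro)renin receptor, which is also an accessory protein of the vacuolar proton pump. It had 5999 in WT and 6057 in Tg on 1437688_x_at, 4810 in WT and 4751 in Tg on 1423662_at, and 4054 in WT and 3327 in Tg on 1439456_x_at. The first 2 of these probe sets differed between the arrays by at most 0.02 on the log2 scale, and the third was lower in Tg, at -0.29. The sign of the first was not stable, since it went from 0.01 to -0.02 after loess and after quantile normalization.

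**Figure D2:**
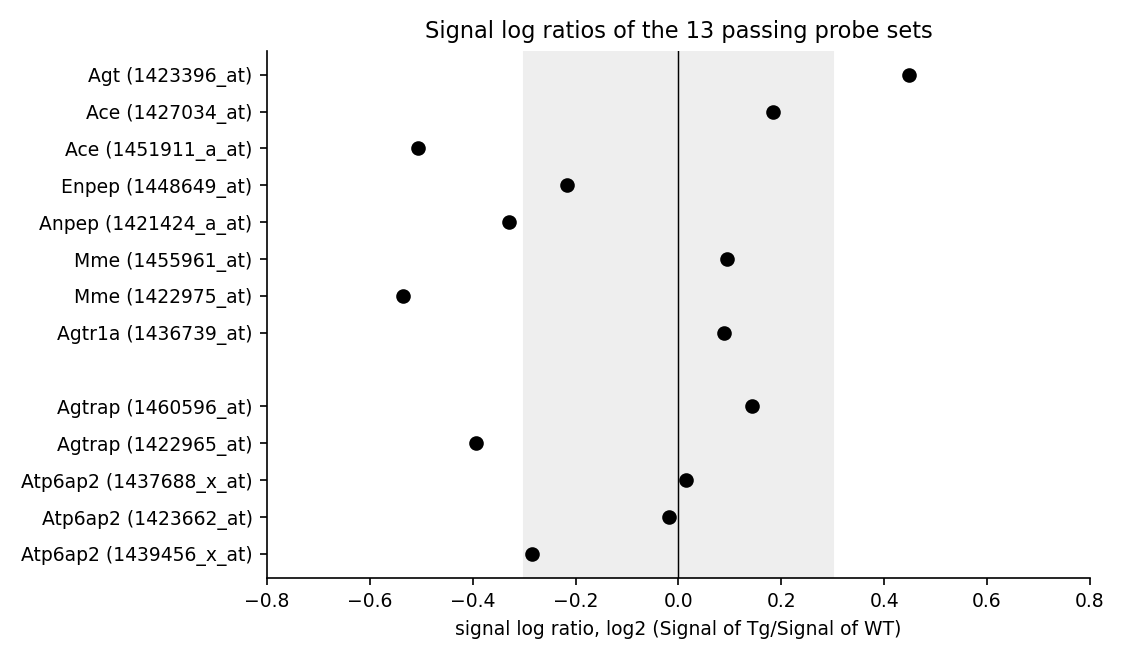
SLRs (log2, Tg over WT) of the 13 probe sets above background, 1 point per probe set, grouped by gene; the grey band covers -0.3 to 0.3. *Agt* at 0.45 is the only probe set to the right of the band, and 4 lie to its left, from *Anpep* at -0.33 to the dimmer probe set of *Mme* at -0.54.

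By probe set rather than by gene, 1 of the 13 was over 0.3, 4 were under -0.3 and 8 lay between, with a median of -0.02. Over all 23713 probe sets kept, 17.8% were over 0.3 and 21.5% under -0.3, against 7.69% and 30.8% of these 13. The probe sets under -0.3 were the only one of *Anpep* and the dimmer of the 2 for *Ace*, *Agtrap* and *Mme*. In each of these last 3 genes, the brighter probe set was over 0. The second-brightest probe set was lower than the brightest by 0.69 for *Ace*, by 0.54 for *Agtrap*, by 0.63 for *Mme* and by 0.03 for *Atp6ap2*, each as a difference of SLRs. Over the 5250 genes whose brightest and second-brightest probe sets were both kept, the second was lower in 58.1%, by more than 0.5 in 15.4%, and the median difference was -0.07. A brightest probe set over 0 beside a second one under -0.3, as in *Ace*, *Agtrap* and *Mme*, was found in 9.92% of these genes. The opposite case, a second one over 0 beside a brightest one under -0.3, was found in 2.78%. *Ace* would fall in this opposite case if its probe sets were taken in the other order, as their mean log2 signals differed by only 0.0013.

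**Figure D3:**
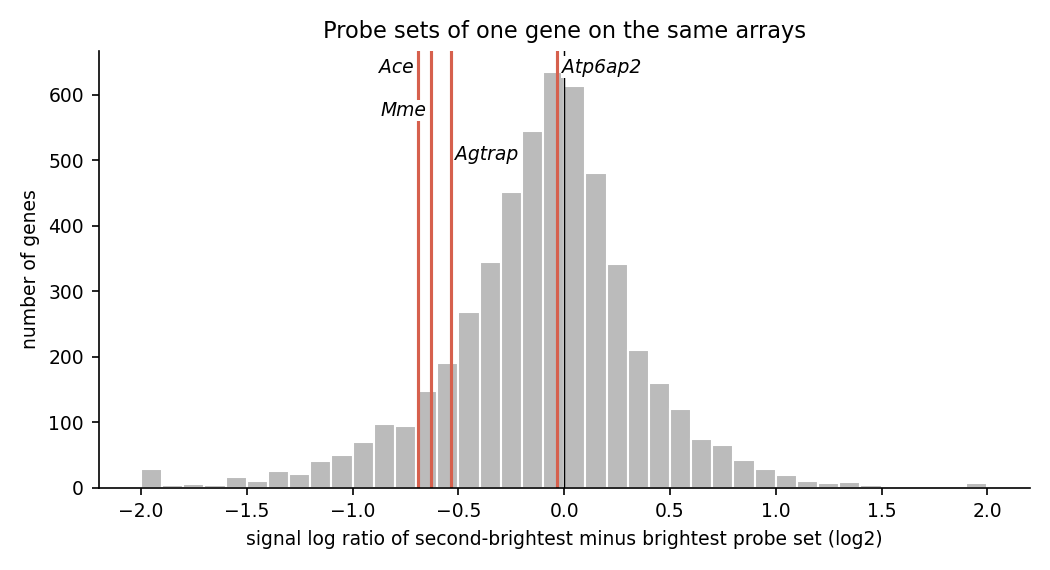
SLR of the second-brightest minus that of the brightest probe set of the same gene, in log2 units, for 5250 genes with both probe sets kept; bars count genes, the end bars also hold 32 genes beyond -2 or 2, and the vertical lines are the 4 members with a second probe set. *Ace*, *Mme* and *Agtrap* lie in the left shoulder between -0.69 and -0.54, while *Atp6ap2* is near 0.

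A difference between the arrays stood beside these values. For the 8 pairs of poly-A controls, which read 4 bacterial RNAs that are labelled with the sample by 2 pairs each, the 5′ probe set had a lower SLR than the 3′ probe set in 8 of 8 pairs, by a median of -0.55, whereas the 8 pairs of hybridisation controls had a median of -0.005. For control probe sets to 5 mouse transcripts, the 5′ probe set was lower in 4 of 5, with a median of -0.25 that was the value of beta-actin, and *Gapdh* had -0.33. The exception was 18S ribosomal RNA. Among the 4, the transferrin receptor had -1.67, but its 5′ signals of 30.9 in WT and 5.6 in Tg were both under 98.2. The places of the member probe sets along their transcripts were not analysed here, and the part of this difference in the values of *Ace*, *Agtrap* and *Mme* was not tested. Among the 9 reference genes kept, the SLRs ran from -0.62 to 0.21 with a median of -0.02.

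**Figure D4:**
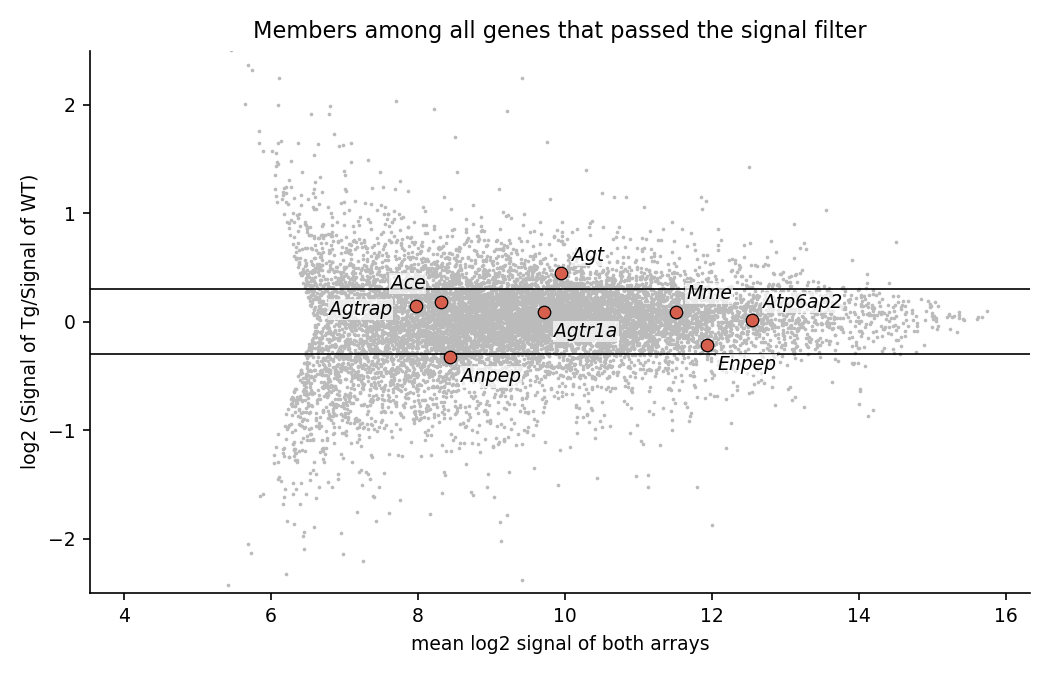
SLR (log2, Tg over WT) plotted on the mean of the WT and Tg log2 signals, 1 point per gene read from its brightest probe set; grey points are the 11587 genes kept, of which 32 lie beyond the axis at -2.5 and 2.5, large points are the 8 members kept, and lines mark 0.3 and -0.3. *Agt* lies above the upper line and *Anpep* just under the lower one, both within the cloud of genes of similar signal.

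Of 20 other enzymes and receptors, 15 were named by a single symbol and 12 of these were kept, of which 1 was over 0.3 and 3 were under -0.3, or 8.33% and 25% against 16.6% and 16.9% of all genes, with a median of -0.13. At these numbers the shares are not read as a result about the group. The 3 under -0.3 were *Nln*, neurolysin, with 1110 in WT and 668.0 in Tg (-0.73), *Thop1*, thimet oligopeptidase, with 135.3 in WT and 88.8 in Tg (-0.61), and *Prep*, prolyl oligopeptidase, with 565.0 in WT and 399.1 in Tg (-0.50). *Thop1* was kept through its WT signal alone, as its Tg signal was under 98.2, and its second probe set was near background. The second probe sets of *Nln* and *Prep* had -0.62 and -0.87, so that both readings of each of these genes were lower in Tg. Prolyl oligopeptidase and thimet oligopeptidase are known to form angiotensin-(1-7). The single gene over 0.3 was *Klk1*, tissue kallikrein, which had 123.9 in WT and 154.0 in Tg, near the level taken as background, and its 3 dimmer probe sets lay between -1.13 and 2.22, all near background.

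Genes of mast cell chymases, a family of which some members form angiotensin II without ACE, were above background. *Cma1* had 603.5 in WT and 638.9 in Tg, and *Mcpt4* had 531.0 in WT and 632.1 in Tg, an SLR of 0.25. Beside them, of 8 mast cell markers, which include both chymases, 7 were kept and 4 were over 0.3, or 57.1% against 16.6% of all genes, with a median of 0.37 and a summed signal of 2638 in WT and 3129 in Tg. One of the 4, *Hdc*, histidine decarboxylase, with 48.3 in WT and 119.2 in Tg, was kept through Tg alone. With the stricter filter at 470.5 the count over 0.3 was 1, and without suffixed probe sets it was 2. *Ctsg*, cathepsin G, had 20.9 in WT and 33.7 in Tg, near background on both arrays. So were *Agtr1b*, the second mouse AT1 receptor gene, with 5.40 in WT and 46.4 in Tg, and *Mas1*, the receptor of angiotensin-(1-7), with 28.4 in WT and 22.8 in Tg. Of the receptors named here, *Agtr1a* was therefore the only angiotensin receptor above background. *Ren1*, *Ren2* and *Lnpep* are not listed in the annotation used here and were not analysed here.

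Of 15 transcription factors known to act on *Agt*, 10 were kept. Of the 10, 3 were over 0.3 and 1 was under -0.3, which is 30% and 10% against 16.6% and 16.9% of all genes. Their median was 0.18, against 0.02 over all genes kept. At 10 genes the shares are not read as a result about the group. For some factors the probe sets kept went opposite ways. *Cebpd* had 0.32 and -0.20, *Nr3c1* lay between -1.12 and 0.15, and *Stat3* between -0.82 and 0.35. *Pparg*, the nuclear receptor of adipocyte differentiation, had 4204 in WT and 6234 in Tg (0.57), and *Rela*, a subunit of NF-kB, had 1906 in WT and 2504 in Tg (0.39). *Cebpa* and *Esr1* had 0.22 and 0.23. *Usf1* had 151.0 in WT and 116.2 in Tg (-0.38). Of 8 markers of mature adipocytes, 7 were named and kept. Of these, 2 were over 0.3 and 1 was under -0.3, or 28.6% and 14.3% against 16.6% and 16.9% of all genes. Their median was 0.11 and their summed signal 145967 in WT and 152452 in Tg. *Adipoq*, *Retn* and *Cidec* had 0.09, 0.19 and 0.04. The paper reports *Cidec*, under the name *Fsp27*, as lower in WAT of Tg mice by quantitative PCR, and its protein as lower by Western blot. The array value of *Cidec* differs from that report, and the cause was not tested. The part of adipocyte share in the value of *Agt* was not tested, and in pooled tissue RNA fewer cells of a type and less RNA per cell cannot be told apart.

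Of 25 genes listed for AT1 receptor signalling and its regulation, 24 were kept. Of these, 2 were over 0.3 and 8 under -0.3, with a median of -0.14. These are 8.33% and 33.3%, against 16.6% and 16.9% of all genes. *Cyba*, a membrane subunit of the NADPH oxidase, had 4544 in WT and 2529 in Tg (-0.85), and *Prkcd*, a protein kinase C, had 1267 in WT and 789.0 in Tg (-0.68) with -0.76 on its second probe set. *Itpr3*, an inositol trisphosphate receptor, and *Plcb2*, a phospholipase C, had -0.85 and -0.55, both with Tg signals under 98.2, so that these 2 of the 8 were kept through WT alone. *Mtus1* was the highest, with 1094 in WT and 1688 in Tg (0.63) and with 0.50 and 0.23 on its other probe sets. It was in this list although it encodes proteins that bind the AT2 receptor. The oxidase genes *Cyba*, *Cybb* and *Ncf1* are known from phagocytes, and without them, a choice made after their values were seen, 5 of 21 were under -0.3 and the median was -0.06. Beside these genes, 5 of 10 macrophage markers were under -0.3, or 50% against 16.9% of all genes, and none was over 0.3, against 16.6%. Their median was -0.33 and their summed signal 34822.5 in WT and 27697 in Tg. The brightest macrophage markers *Csf1r*, *C1qa* and *Mrc1* had -0.16, -0.47 and -0.004. The dimmer probe sets of *Csf1r*, both kept, had 0.16 and -0.51. Whether fewer macrophages or less of their RNA had a part in the values of the signalling genes and of *Anpep*, which myeloid cells are known to carry, was not tested.

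The product of *Atp6ap2* associates with the V-ATPase proton pump. Of 16 V-ATPase genes, 15 were kept, none was over 0.3 and 4 were under -0.3, or 26.7% against 16.9% of all genes, with a median of -0.20. *Atp6v0d2*, a subunit known from macrophages and osteoclasts, stood apart with 1566 in WT and 301.0 in Tg (-2.38) and with -2.32 on its second probe set. *Atp6v1b2*, *Atp6v0a1*, *Atp6v1a* and *Atp6v0b* had -0.52, -0.41, -0.36 and -0.27. Without *Atp6v0d2*, left out after its value was seen, the median was -0.19. *Atp6ap2* itself, at 0.01 on its brightest probe set, and the other accessory gene *Atp6ap1*, with 3612 in WT and 4148 in Tg (0.20), were not among the lower genes.

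**Figure D5:**
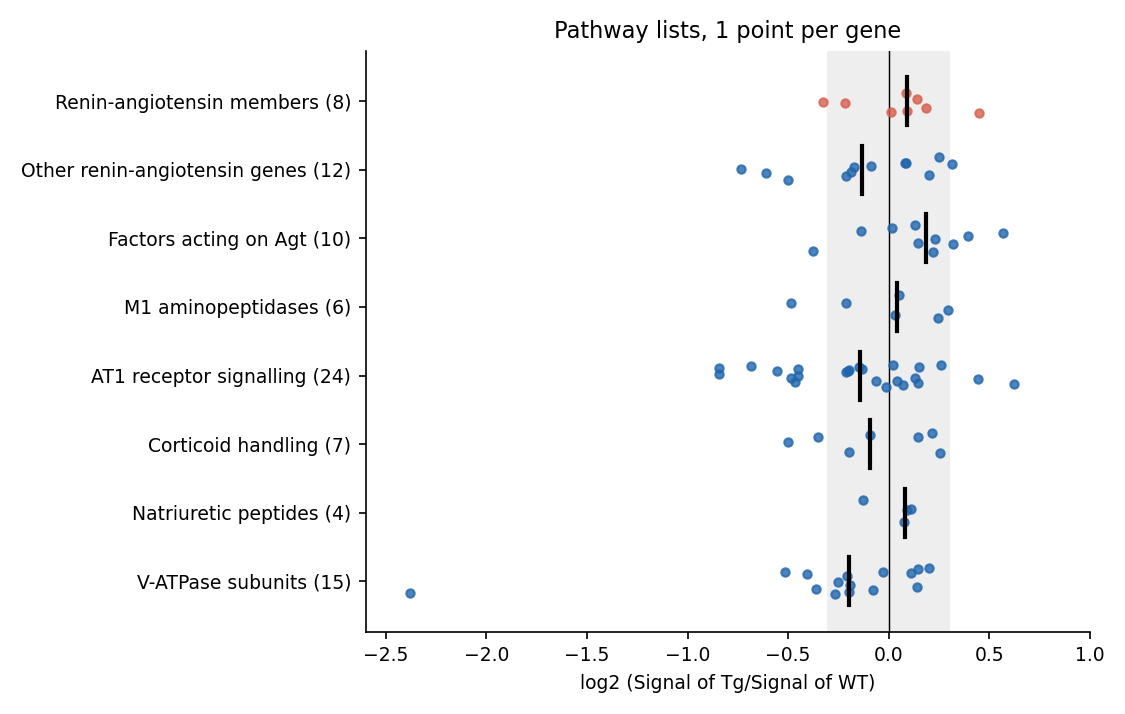
SLRs (log2, Tg over WT) of the genes kept in 8 lists, 1 point per gene read from its brightest probe set, with the number of genes in brackets; vertical bars are medians, the grey band covers -0.3 to 0.3, and the height of a point within a row has no meaning. The members lie around a median of 0.09, and the V-ATPase row extends left to *Atp6v0d2* at -2.38.

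Relatives of the member peptidases did not share one direction. Of 9 M1 aminopeptidases related to *Anpep* and *Enpep*, 6 were kept. None was over 0.3, against 16.6% of all genes, and 1, or 16.7%, was under -0.3, against 16.9%. This was *Aopep*, with 702.0 in WT and 501.5 in Tg (-0.49). *Npepps*, *Rnpepl1* and *Rnpep* had 0.25, 0.05 and -0.21. Of 6 relatives of *Mme*, only 2 were kept, and both, the endothelin-converting enzymes, were under -0.3, against 16.9% of all genes. At 6 and 2 genes kept, these shares are not read as results about the groups. *Ece1* had 1512 in WT and 1152 in Tg (-0.39) with -0.97 on its second probe set, and *Ece2* had 566.5 in WT and 457.1 in Tg (-0.31).

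The hormone systems that share substrates or steroid signals with angiotensin were compared in the same way. At 7, 4 and 2 genes kept, their shares are not read as results about the groups. Of 10 genes of corticoid handling, 7 were kept. None was over 0.3, against 16.6% of all genes, and 2, or 28.6%, were under -0.3, against 16.9%. These were *Hsd11b1*, which regenerates active glucocorticoid in fat, with 2317 in WT and 1818 in Tg (-0.35), and *Hsd11b2*, the enzyme that inactivates it, with 182.6 in WT and 129.3 in Tg (-0.50). *Nr3c2*, the mineralocorticoid receptor that aldosterone binds, and its target *Sgk1* had 0.26 and 0.22, and *Fkbp5* had -0.20. Of 9 natriuretic peptide genes, 4 were kept and none was past 0.3 or -0.3. *Npr3*, the clearance receptor of these peptides, had 17477.5 in WT and 15985 in Tg for the brightest of its probe sets (-0.13), but -0.61 and -1.03 on the 2 dimmer ones, while *Npr2* and *Prkg1* had 0.08 and 0.09. Of 9 kinin genes, 2 were kept, of which *Kng1* had -0.13.

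Markers of the cells that carry the member peptidases were compared in the same way. Beside the shares below, 16.6% of all genes were over 0.3 and 16.9% under -0.3. At 8, 10 and 9 genes kept, these shares are not read as results about the cells. Of 8 endothelial markers, which bear on *Ace*, none was over 0.3 and 1, or 12.5%, was under -0.3. Their median was -0.06 and their summed signal 8117 in WT and 7853 in Tg. *Esam*, *Tek* and *Pecam1* had 0.05, 0.02 and -0.09. Of 10 markers of smooth muscle and pericytes, which are known to carry *Enpep* and *Agtr1a*, 3, or 30%, were under -0.3 and none over 0.3. Their median was -0.20 and their summed signal 37447 in WT and 33755 in Tg. *Acta2*, *Rgs5* and *Tagln* had -0.24, -0.06 and 0.09 on their brightest probe sets. The dimmer probe sets of *Rgs5*, all kept, had -0.81, -0.75 and -1.06. Of 10 markers of preadipocytes and fibroblasts, which are known to carry *Mme* and *Anpep*, 9 were kept. Of these, 1 was over 0.3 and 1 under -0.3, or 11.1% each. Their median was -0.04 and their summed signal 78371 in WT and 80893 in Tg. *Dcn*, *Col3a1* and *Lum* had 0.14, 0.05 and -0.17. The part of these cells in the member values was not tested.

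The kidney and ovary, which could have been taken along with perigonadal fat, gave dim markers. No marker of the kidney proximal tubule, whose brush border is rich in the member peptidases, had a signal over 151.7, and 2 of 7 were kept. No ovarian marker had a signal over 229.1, and 3 of the 7 named were kept. Mesothelial markers were all kept, with a median of 0.22. Of these 7, 2 were over 0.3, or 28.6% against 16.6% of all genes, and none was under -0.3, against 16.9%. Their summed signal was 8372 in WT and 9978 in Tg. *Upk3b*, *Upk1b* and *Msln* had 0.06, 0.46 and 0.18, but the dimmer probe sets of *Upk1b* had -0.02, 0.23 and -0.23. All 8 brown adipocyte markers were over 0.3, against 16.6% of all genes, among them *Cox8b*, *Cidea* and *Fabp3* at 1.43, 4.44 and 3.43. Their summed signal was 4943 in WT and 28056 in Tg. The median was 2.83, which was 2.23 with the pseudocount and 1.84 as the median over probe sets. *Dio2*, with 25.3 in WT and 149.2 in Tg, and *Elovl3*, with 61.5 in WT and 523.7 in Tg, whose ratios set that median, were kept through Tg alone. The 3 Y-linked genes named had no signal over 39.3.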

How the data were processed

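Perigonadal WAT RNA of 3 HFD-fed mice per genotype was pooled, and each pool was hybridised to 1 Affymetrix mouse genome array. The authors made the deposited intensity values (signals) in GeneChip Operating Software ver1.4, by the MAS5 method named in the submitters' processing notes, which combines perfect-match and mismatch probes into 1 linear signal per probe set. Both arrays had a 2% trimmed mean of 500.0, and all 45101 probe sets are in the table. The number of arrays limits the precision. Detection calls were not analysed here, and a level of 98.2 on the higher signal, the median of all signals, stands in for the Present call.

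From these signals, the SLR was computed as in the methods, without further scaling, and 64 control probe sets were left out. Gene symbols came from the platform annotation, which may be old: of 45037 probe sets other than controls, 34945 had 1 symbol, 932 several and 9160 were not listed. The probe set with the highest mean log2 signal stood for a gene. No test is possible with 1 array per genotype. The members and lists were chosen with earlier results of these data known. All members were named by every probe set, up to 5 genes of each pathway list by the size of their ratio where the probe sets kept went the same way, 9 further genes of the system whatever their value, and at most 3 markers of each cell type by brightness. The genes left out of lists were chosen after their values were seen, as were second probe sets and single markers beside their lists, *Hdc*, *Dio2* and *Elovl3* among them.

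Other settings tried were median centring, quantile normalization, loess with a span of 0.3, a pseudocount of 25.1, a floor of 56.9, other signal filters (none, 67.1 and 470.5), other probe sets for a gene, and a limit of 1 in place of 0.3. The computation of the ratios was checked on simulated data with known shifts, which does not measure the precision of the values given here. Promoter sequences and gene positions are from RefSeq, GRCm38.p6; *Agtr1a* is not in the promoter table. Python 3.11.15, numpy 2.4.6, pandas 2.3.3, statsmodels 0.14.6 and matplotlib 3.10.9 were used.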

Additional observations from a re-analysis of the deposited data

How the results depend on the processing

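*Agt* stayed over 0.3 under each scaling, low-signal and filter setting tried, with values between 0.44 and 0.45. Of the other members kept, the sign changed under scaling for *Atp6ap2* alone, to -0.02 after loess and after quantile normalization, and the median over probe sets put *Ace*, *Agtrap* and *Mme* at -0.16, -0.13 and -0.22. *Atp6ap2* was then at -0.02, and the median of the 8 genes -0.14. The count of member genes over 0.3 was 1, but 2 without a signal filter, where *Agtr2* entered, and 0 when genes were read from their second-brightest probe set, which only 4 members have and *Agt* lacks. The count under -0.3 was 1 (*Anpep*), but 0 after quantile normalization, where *Anpep* had -0.296, 0 with the stricter filter at 470.5 and 0 without suffixed probe sets, where *Anpep* has no probe set, and 3 on second-brightest probe sets (*Ace*, *Agtrap* and *Mme*). On these the median of the 4 members was -0.45, against 0.09 for the 8 genes kept. With a limit of 1 in place of 0.3, both counts were 0. Of 14 probe sets, 1 was near background at 98.2, at 67.1 and at 56.9, and 6 were under 470.5 on both arrays. On second-brightest probe sets the macrophage markers had a median of 0.073 over 2 genes, in place of -0.33 over 10, and the ovarian markers 1.13 on 1 gene, in place of -0.42 over 3. The mature adipocyte markers had -0.80 on 1 gene, in place of 0.11 over 7, and the other enzymes and receptors of the system -0.96 over 4, in place of -0.13 over 12; the cause was not tested beyond the smaller number of genes. On these probe sets, 39.6% of the calls over all genes were upward, and 49.6% on the brightest. No paired analysis was possible because each genotype has 1 array, and for the same reason no replicate could be left out.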
